A study of Mus musculus with 9 samples.

Results

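Kinesins are motor proteins that walk along or take apart microtubules, and the 43 kinesin genes in the RNA sequencing table of mouse testis are described here. They were chosen by symbol alone, as every gene whose symbol starts with Kif followed by a number or by the letter c, from 22337 genes in the table. Kifap3, which encodes the accessory subunit of kinesin-2 and is not a motor, was not counted as a member. RNA came from whole testes of mice at 3 weeks of age, and 3 testes each were wild-type, heterozygous (Piwil4 WT/R264W) and homozygous (Piwil4 R264W/R264W). In the knock-in mice, made with CRISPR-Cas9 in C57BL/6 zygotes, an arginine in the PAZ domain of the PIWI protein PIWIL4 was replaced by tryptophan, on 1 allele or on both. The study asked what the substitution changes in testes during the first wave of spermatogenesis. It is carried in every cell of the animal and not in germ cells alone, and the labels do not say whether the testes of a genotype came from littermates.

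In the testis, kinesins serve cells with very different microtubule arrays. Dividing spermatogonia and spermatocytes build spindles and midbodies with mitotic kinesins, while round spermatids begin to assemble a flagellum, for which kinesin-2 carries cargo along the axoneme. Kinesin-13 motors do not walk but remove tubulin from microtubule ends, and kinesin-1 and kinesin-3 carry organelles and vesicles. At 3 weeks of age the first round spermatids are appearing, so the transcripts found in a whole testis vary with its progress through the wave.

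Each testis had 18.0 to 24.3 M estimated counts in all, and 3 counts, taken as the limit that a count of 0 allows (counting error only), made between 0.122 and 0.171 CPM (counts scaled to the size of the library, here by TMM). Piwil4 had between 18 and 46 estimated counts in each testis, and the level of the gene does not show the substitution. Progress of the first wave was scored in each testis by averaging log2 CPM over 19 genes of round spermatids, among them Acrv1, Tnp1 and Prm1, none of which is a kinesin. The score rose from 0.73 in Piwil4 WT/R264W replicate 3 through 1.23 (wild-type replicate 3), 2.21 (Piwil4 R264W/R264W replicate 1), 2.48 (wild-type replicate 2), 3.40 (Piwil4 WT/R264W replicate 2), 3.64 (Piwil4 R264W/R264W replicate 2), 5.01 (Piwil4 WT/R264W replicate 1) and 5.83 (Piwil4 R264W/R264W replicate 3) to 6.03 in wild-type replicate 1. The scores of the 3 genotypes overlapped, with means of 3.25 ± 2.49 in wild-type, 3.04 ± 2.16 in heterozygous and 3.89 ± 1.82 in homozygous testes (SD, n = 3 each). The summed level of the 19 genes ran from 88.4 to 1700 CPM, so the testes at both ends of the score stood far apart. Calls of kinesin genes on the score are given with and without them. Calls of partner genes and cell type markers are given for all 9 testes only. Below, the values of a gene in the 9 testes are listed in this order of the score, from the lowest to the highest, irrespective of genotype.

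The letters upstream of 3 members are shown first because their levels moved in different ways: Kif17 and Kif2b rose most steeply with the score, and Kif11, a spindle motor, did not rise. Each is the 250 bases before the start of the gene in RefSeq (build GRCm38.p6), written 5′ to 3′ on the strand of the gene. Kif17 lies at chr4:138262001-138262250 (plus strand), Kif2b at chr11:91577556-91577805 (minus strand) and Kif11 at chr19:37376132-37376381 (plus strand). No part of these 3 windows matched a GENCODE transcript of the same gene. Capitals mark letters that match a searched motif on either strand.
Kif17: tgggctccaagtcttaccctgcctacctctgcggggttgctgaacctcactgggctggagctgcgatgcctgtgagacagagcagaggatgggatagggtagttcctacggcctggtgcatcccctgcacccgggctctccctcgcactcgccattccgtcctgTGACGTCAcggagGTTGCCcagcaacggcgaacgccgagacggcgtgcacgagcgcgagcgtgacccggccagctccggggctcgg
Kif2b: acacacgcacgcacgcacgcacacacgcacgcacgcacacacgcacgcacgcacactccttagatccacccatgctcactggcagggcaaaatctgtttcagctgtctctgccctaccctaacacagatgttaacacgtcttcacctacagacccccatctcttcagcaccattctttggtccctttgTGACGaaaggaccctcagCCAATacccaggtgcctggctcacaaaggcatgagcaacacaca
Kif11: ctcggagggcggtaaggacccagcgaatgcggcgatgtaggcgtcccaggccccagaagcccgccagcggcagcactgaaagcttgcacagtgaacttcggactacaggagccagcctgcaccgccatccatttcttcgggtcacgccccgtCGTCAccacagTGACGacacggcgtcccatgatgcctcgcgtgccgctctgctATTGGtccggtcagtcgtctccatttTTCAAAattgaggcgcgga
Of the 43 members, 33 matched the RefSeq promoter set by symbol, with 37 windows, since 4 genes had a pair of annotated starts. In 10 of the 37 windows some bases lay in a GENCODE transcript of the gene, and distances are from the RefSeq start. For Kif4 these were all 250 bases, and for Kif13a 149. The Kif4 window was kept in the counts of spindle and cytokinesis windows below. The motifs searched on both strands were the full cAMP response element (TGACGTCA) and its core (TGACG), the CCAAT box (CCAAT), the cell cycle homology region (TTTGAA), a part of the X-box of ciliary genes (GTTGCC) and a MYB-type site (AACNGNC). Matches to TGACG include those inside TGACGTCA.

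Kif17 held the full cAMP response element 86 to 79 bases before its start, with GTTGCC 73 to 68 bases before it. The full element is the letters that CREM, an activator of spermatid genes, is known to bind. It stood in 2 of 37 member windows (Kif17 and Kif5c, 5.41%) and in 508 of 32851 windows of all genes (1.55%). Kif17 rose with the score, whereas Kif5c was not called on it (adjusted p = 0.752, edgeR). Kif2b held TGACG 62 to 58 bases and CCAAT 44 to 40 bases before its start. Kif11 held TGACG at a pair of places, CCAAT 45 to 41 bases and TTTGAA 19 to 14 bases before its start.

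Over all member windows TGACG was found in 16 of 37 (43.2%), against 17.8% of the windows of all genes. It stood in 7 of 12 spindle and cytokinesis windows, 3 of 9 cilium and flagellum windows and 5 of 10 cargo transport windows. The 5 cargo transport windows belong to 4 genes, since a pair of overlapping Kif1b windows holds the same site. Of the 10 windows of members that rose with the score, 3 held it. CCAAT stood in 8 of the 12 windows of spindle and cytokinesis kinesins (66.7%), against 33.8% of all windows. It also stood in 5 of the 9 cilium and flagellum windows (55.6%) and in 2 of the 10 cargo transport windows. These 2 are overlapping windows of 1 gene, Kif1b, and hold the same sites. TTTGAA stood in 5 of the 12 spindle and cytokinesis windows (41.7%), against 16.0% of all windows. GTTGCC stood in 4 of the 9 windows of cilium and flagellum kinesins (44.4%; Kif17, Kif24, Kif3a and Kif9), against 10.4% of all windows. AACNGNC was found in 18.9% of member windows and in 27.7% of all. Member windows were also richer in G and C, with a median of 64.0% against 52.4% over all windows, and ranged from 32.8% at Kif27 to 85.6%. Such matches describe letters and not binding, and the shares were not matched for base composition or tested for differences between roles.

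Of the 43 kinesin genes, 40 had counts high enough to be tested. The others were Kif12, with 0 or 1 count in each testis, Kif28, with 0 to 3, and Kif19b, with 2 to 13. Levels per length, given as FPKM (fragments scaled to gene length and library size, as deposited), spanned a wide range among the members. Kif9, a kinesin-9 motor of the sperm flagellum, had the highest mean (117 FPKM, 92.9 to 140 over the 9 testes), and Kif2a, a microtubule depolymerase of kinesin-13, came next (113 FPKM, 98.2 to 131). Their ranges overlapped almost fully, and their order differed between testes. Kif2a was the higher of them in the testes with scores up to 2.21 (98.24 against 92.94 FPKM at the lowest score). Kif9 was the higher in those with scores from 2.48 on (139.54 against 131.44 FPKM at the highest score). This difference was not tested. Kif3b (65.7 FPKM) and Kif3a (46.5 FPKM), the motor subunits of heterotrimeric kinesin-2, Kif20a (61.3 FPKM), which acts in cytokinesis, and Kif27 (41.3 FPKM), a motor of motile cilia, followed, and Kif2b lay between 6.80 and 122 FPKM. At the low end of the tested genes stood Kif26b, with 0.03 to 0.1 FPKM and 7 to 22 counts per testis. The neuronal transport motors Kif5a and Kif5c lay between 1.02 and 1.66 and between 1.23 and 1.71 FPKM.

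To ask how each member changed as the first wave advanced, a model of genotype and score was fitted to all 9 testes with edgeR's quasi-likelihood test, and a slope is the log2 change in CPM per unit of score. With Benjamini-Hochberg adjustment over the 15833 genes tested, 10 of the 40 kinesin genes rose with the score (25%) and 4 fell (10%), while 26 did not pass an adjusted p of 0.05. Among all genes 17.1% rose and 8.19% fell, so the shares among the kinesins were not far from those of all genes. The median slope of the members was 0.00 and that of all genes -0.01. Within the family the slopes were very uneven, as the plot of slopes by gene shows: Kif2b and Kif17 stood far above the rest at 0.74 and 0.61, the next slope was 0.18 (Kif27), and all others lay between -0.14 and 0.11.

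**Figure D1:**
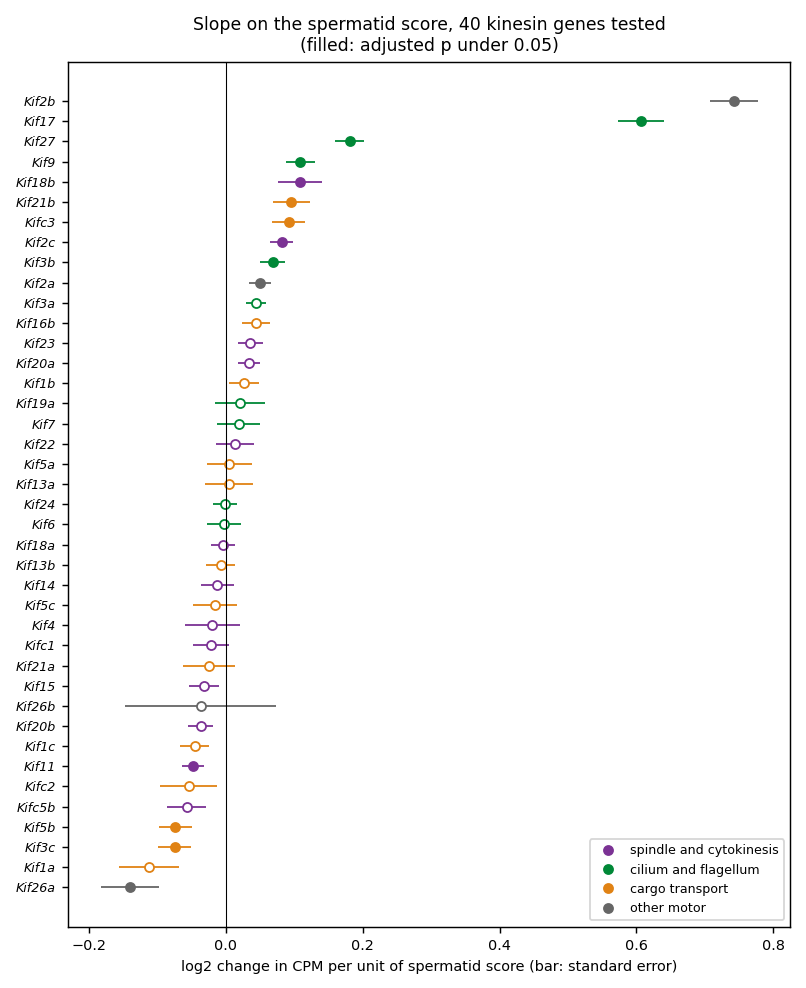
Slope of each of the 40 tested kinesin genes on the spermatid score (horizontal axis, log2 change in CPM per unit of score; bars are standard errors; 9 testes), coloured by role, with filled points for adjusted p under 0.05. Kif2b (0.74) and Kif17 (0.61) stand apart at the top, and the other 38 slopes lie between -0.14 and 0.18.

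By role, 4 of the 9 cilium and flagellum kinesins rose (Kif17, Kif27, Kif9 and Kif3b) and 0 fell, with a median slope of 0.04. Kif3c, a kinesin-2 like Kif17 and Kif3b, fell but was grouped with cargo transport, so the count of 0 rests on this grouping. Among all genes 17.1% rose and 8.19% fell. Of the 13 spindle and cytokinesis kinesins, 2 rose (Kif18b and Kif2c) and 1 fell (Kif11), with a median of -0.01. Of the 14 cargo transport kinesins, 2 rose (Kif21b and Kifc3) and 2 fell (Kif5b and Kif3c), with a median of -0.01. Of the 4 tested members with other roles, 2 rose (Kif2b and Kif2a) and 1 fell (Kif26a). Kif2a and Kif2b were grouped there although kinesin-13 motors also act on spindles, and with both counted as spindle kinesins 4 of 15 rose and 1 fell, with a median slope of 0.00. Whether these roles differed from each other was not tested. In a bulk testis, fewer cells of a type and less RNA per cell cannot be told apart, and this holds for every slope given here.

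The number of calls depended on which testes were used. Without wild-type replicate 1, wild-type replicate 3 or Piwil4 R264W/R264W replicate 3 the number of kinesins called was 5 each time, without Piwil4 R264W/R264W replicate 1 it was 6, and without Piwil4 WT/R264W replicate 3 it was 7. Over all genes the share called also dropped, from 25.3% to 12.3%, 14.2%, 14.4%, 18.2% and 16.1% in the same order. Without Piwil4 WT/R264W replicate 1 the number rose to 17 members (41.5%), with 37.8% of all genes called. Without Piwil4 WT/R264W replicate 2 it was 16 (39%), with 30.6% of all genes. Leaving out wild-type replicate 2 or Piwil4 R264W/R264W replicate 2 gave 11 and 10 members, with 24.3% and 21% of all genes. With the 2 testes farthest from the median score left out, 3 members (7.5%) and 6.36% of all genes were called. The 3 members were Kif2b, Kif17 and Kif27, and these were called in every one of the 21 alternative analyses run. Kif9 and Kif2c were called in 20 of the 21.

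Kif2b encodes a kinesin-13 that shortens microtubules at kinetochores and is known for its high expression in testis. Its level in the 9 testes was 15.0, 24.7, 54.8, 45.6, 96.5, 92.2, 167, 266 and 301 CPM, a 20.1-fold range. It was lowest in the 2 testes with the lowest scores and highest in the 2 with the highest, and followed the score in all but 2 neighbouring pairs. Its slope was 0.74 (standard error 0.035; adjusted p = 6.66e-09, edgeR's quasi-likelihood test), and 2.22% of all genes tested had a larger one.

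Kif17 encodes the homodimeric kinesin-2, which in spermatids is known to carry the CREM coactivator ACT (the product of Fhl5) out of the nucleus. Its level was 14.5, 19.4, 36.2, 34.4, 69.6, 58.3, 89.3, 150 and 153 CPM, a 10.6-fold range. The same 2 pairs of neighbouring testes stood against the order as for Kif2b, and each pair joined testes of close score and different genotype. The slope was 0.61 (standard error 0.034; adjusted p = 2.56e-08, edgeR), with 3.53% of all genes above it.

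Kif27, a relative of Kif7 that acts in building motile cilia, rose 2.18-fold, at 143, 146, 180, 175, 196, 188, 204, 268 and 313 CPM. It went from 143 to 204 CPM over the first 7 testes and was highest in the last 2, with a slope of 0.18 (standard error 0.021; adjusted p = 2.78e-05, edgeR). Kif9, which is needed for normal sperm movement, stood at 255, 294, 313, 345, 376, 329, 327, 418 and 434 CPM (slope 0.11, standard error 0.021, adjusted p = 0.00207, edgeR). Already abundant in the testes with few spermatid transcripts, Kif9 rose 1.71-fold. Its call was lost with the 2 testes farthest from the median score left out (adjusted p = 0.315, edgeR).

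**Figure D2:**
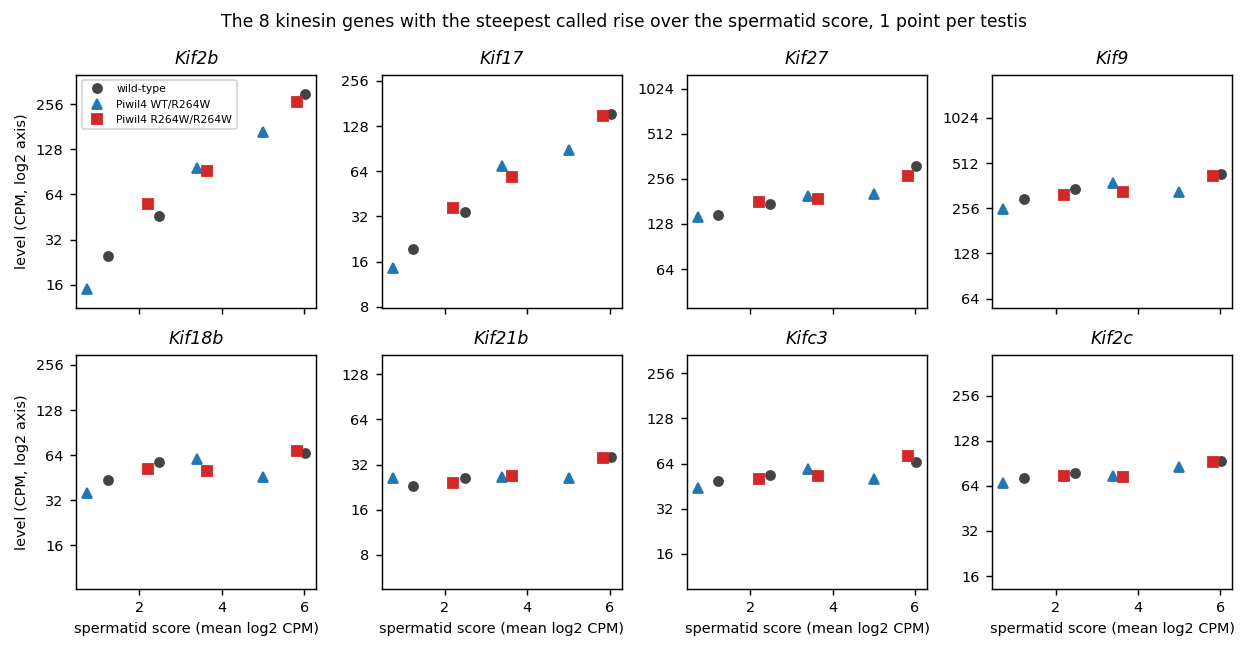
Level of the 8 kinesin genes with the steepest called rise (vertical axes, CPM on a log2 scale of the same span in every panel) against the spermatid score (horizontal axes, log2 CPM averaged over 19 genes), 1 point per testis, with symbols for genotype. Kif2b climbs from 15.0 to 301 CPM and Kif17 from 14.5 to 153 CPM, while the other 6 rise 1.40-fold to 2.18-fold, and the genotypes are interleaved along the score.

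The other rising members moved by small amounts. Kif18b, a kinesin-8 that limits astral microtubules with Kif2c, had 36.0, 43.6, 51.7, 57.8, 60.7, 50.4, 46.0, 68.1 and 65.9 CPM (slope 0.11, adjusted p = 0.0278, edgeR). Kif2c, the centromeric kinesin-13 known as MCAK, had 67.0, 71.7, 74.6, 78.2, 74.3, 73.1, 85.5, 91.8 and 93.9 CPM (slope 0.08, adjusted p = 0.00407, edgeR). For both the 2 testes with the highest scores lay above all others.

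Kif21b, a kinesin-4 that governs microtubule growth in neurons and lymphocytes, was level at 22.9 to 26.9 CPM in 7 testes and stood at 35.6 and 35.7 CPM in the 2 with the highest scores (slope 0.10, adjusted p = 0.0223, edgeR). Kifc3, a minus end directed motor, had 44.2, 48.6, 50.4, 53.9, 59.1, 52.7, 50.2, 71.8 and 65.6 CPM (slope 0.09, adjusted p = 0.0155, edgeR). Both were highest in Piwil4 R264W/R264W replicate 3 and wild-type replicate 1. Without replicate 1 or 3 of wild-type, or replicate 1 or 3 of Piwil4 R264W/R264W, Kif18b, Kif21b and Kifc3 were not called, nor were Kif18b and Kifc3 without Piwil4 WT/R264W replicate 3. Estimated counts of Kifc3 were not whole numbers in any testis, and whether reads were divided among genes was not tested. Kif3b rose 1.46-fold (307 to 448 CPM, slope 0.07, adjusted p = 0.0175, edgeR) and Kif2a 1.41-fold (261 to 368 CPM, slope 0.05, adjusted p = 0.0402, edgeR). Kif3a, the partner of Kif3b, had a slope of 0.04 with an adjusted p of 0.0504 (edgeR) and was not called. Kif3b lost its call without wild-type replicate 1 or 3, Piwil4 WT/R264W replicate 3 or Piwil4 R264W/R264W replicate 3, and Kif2a without 7 of the 9 testes in turn.

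The falling members were called at the edge of the threshold, and under scaling of the libraries to the 12 genes of a Sertoli cell list 0 of the 4 were called, with Kif11 at a slope of 0.00. That scaling moved the median slope of all genes from -0.01 to 0.04 and that of the members from 0.00 to 0.05, and the split over all genes from 2710 higher and 1297 lower to 2797 higher and 37 lower. Kif26a, an atypical kinesin that does not use ATP and is known from enteric neurons, fell most under TMM scaling, at 14.1, 13.6, 14.6, 14.2, 9.66, 11.1, 13.1, 8.59 and 7.61 CPM (slope -0.14, standard error 0.042, adjusted p = 0.0278, edgeR; -0.10 with adjusted p = 0.115 under Sertoli scaling). The 2 testes with the highest scores had the lowest levels. Without wild-type replicate 1, wild-type replicate 3, Piwil4 R264W/R264W replicate 1 or Piwil4 R264W/R264W replicate 3, Kif26a was not called.

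Kif3c, which pairs with Kif3a in neurons, had 29.8, 26.4, 25.5, 28.8, 24.8, 26.5, 24.8, 21.3 and 21.2 CPM (slope -0.07, adjusted p = 0.0364, edgeR). Kif5b, the kinesin-1 heavy chain of most tissues, had 164, 130, 131, 123, 113, 136, 143, 104 and 103 CPM (slope -0.07, adjusted p = 0.0422, edgeR). Both were highest in the testis with the lowest score and lowest in the 2 with the highest. Kif11, the motor that pushes spindle poles apart, had 103, 108, 89.9, 103, 90.1, 91.8, 88.4, 81.6 and 91.9 CPM (slope -0.05, adjusted p = 0.0436, edgeR), and wild-type replicate 1, with the highest score, stood above Piwil4 R264W/R264W replicate 1, with a score of 2.21. Kif11 and Kif5b were not called when any 1 of the wild-type or Piwil4 R264W/R264W testes or Piwil4 WT/R264W replicate 3 was left out, and Kif3c when any 1 of the same testes other than wild-type replicate 2 was left out. Kif1a, a carrier of synaptic vesicle precursors, had a slope of -0.11 that did not pass (adjusted p = 0.0795, edgeR).

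**Figure D3:**
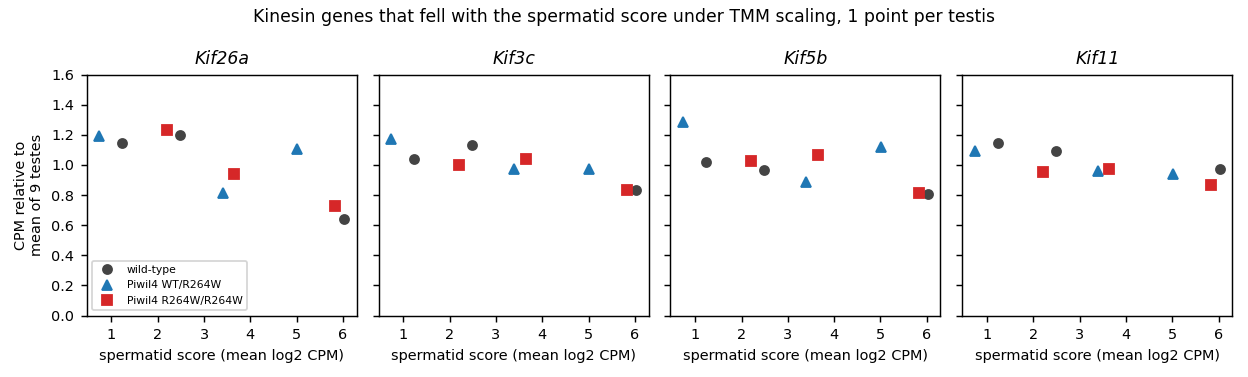
Level of the 4 kinesin genes that fell under TMM scaling, as CPM divided by the mean of the 9 testes (vertical axes from 0), against the spermatid score, 1 point per testis, with symbols for genotype. Kif26a spans 14.6 to 7.61 CPM, a larger relative change than in Kif3c, Kif5b and Kif11, and under Sertoli scaling 0 of the 4 were called.

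Some marker genes of other cells of the testis were also called on the score, under the same scaling. Among all genes 17.1% rose and 8.19% fell, and whether the marker lists differed from these shares was not tested. Of the 12 pachytene spermatocyte markers 6 rose and 1 fell (summed level 8540 to 11200 CPM), and of the 12 early meiotic markers 1 rose and 7 fell (2190 to 3030 CPM). Of the 11 spermatogonial markers 2 rose and 2 fell (740 to 893 CPM), of the 12 Sertoli cell markers 1 rose and 3 fell (1620 to 2530 CPM), and of the 7 Leydig cell markers 2 rose and 0 fell (178 to 445 CPM). Among 6 myoid, 5 macrophage and 5 endothelial markers, 1, 1 and 0 rose and 0 fell, and of 5 erythroid markers 1 fell (summed levels of 154 to 279, 52.0 to 72.5, 20.6 to 30.1 and 81.8 to 360 CPM). Of 7 muscle markers 2 were tested and 0 moved (2.18 to 8.57 CPM). No marker was at 0 in every testis. The part of these cells in the slopes of single kinesins was not tested, and with a score made from the pachytene markers in place of the spermatid score 16 of 40 members (40%) and 31% of all genes were called.

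The direction held inside each genotype for the steepest members. In score order, the levels of Kif2b, Kif17 and Kif27 rose from testis to testis within each of the 3 genotypes. These were 3 of the 40 members (7.5%), and 7.17% of all genes did the same, so this count was close to the background. Falling order in all 3 genotypes was seen for 0 members and for 3.22% of all genes. A test of whether the slope differed between genotypes called 0 of the 40 members with adjustment (edgeR; 0.00632% of all genes were called). At an unadjusted p under 0.05 it picked out 1 member, Kif21b (adjusted p = 1, edgeR), against 1.96% of all genes.

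The steep rise of 2 genes changed the make-up of their families. Per length, the members summed to 729.3 FPKM in the testis with the lowest score and to 986.4 FPKM in that with the highest. Without Kif2b and Kif17 the sums were 718.1 and 822.8 FPKM, so these 2 genes made up most of the difference. The share of the family's summed FPKM in spindle and cytokinesis kinesins went from 31.9% to 23.6% between the same testes. Of those 13 genes, 10 were not called, and the total they were divided by grew. Kif2a and Kif2b were left out of this share. The share of the members with other roles, which include both, went from 14.7% to 25.8%. The fall rests on this grouping and was not seen with both counted as spindle kinesins.

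Among the kinesin-13 depolymerases with a shared name, Kif2a, Kif2b and Kif2c, Kif2b made up 5.24% of the summed FPKM at the lowest score and 42.0% at the highest. In the 9 testes its share was 5.24, 7.46, 14.5, 12.5, 23.3, 22.5, 34.8, 41.6 and 42.0%. At 122.18 FPKM Kif2b came close to Kif2a, which was at 131.44 FPKM in the same testis (wild-type replicate 1), whereas in Piwil4 WT/R264W replicate 3 they stood at 6.80 and 98.24 FPKM. Its rank among the 43 members moved from 26 to 3.

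Among the kinesin-2 motors, Kif17 made up 4.03, 5.19, 8.46, 7.70, 14.7, 13.2, 18.2, 25.6 and 25.2% of the summed FPKM of Kif3a, Kif3b, Kif3c and Kif17. Its rank among the members moved from 29 to 8, and in the 2 testes with the highest scores it reached 41.6 and 41.3 FPKM, close to Kif3a at 47.3 and 47.7 FPKM. Kif3a itself lay between 43.8 and 50.1 FPKM in every testis, and Kif3c between 2.83 and 4.47 FPKM.

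**Figure D4:**
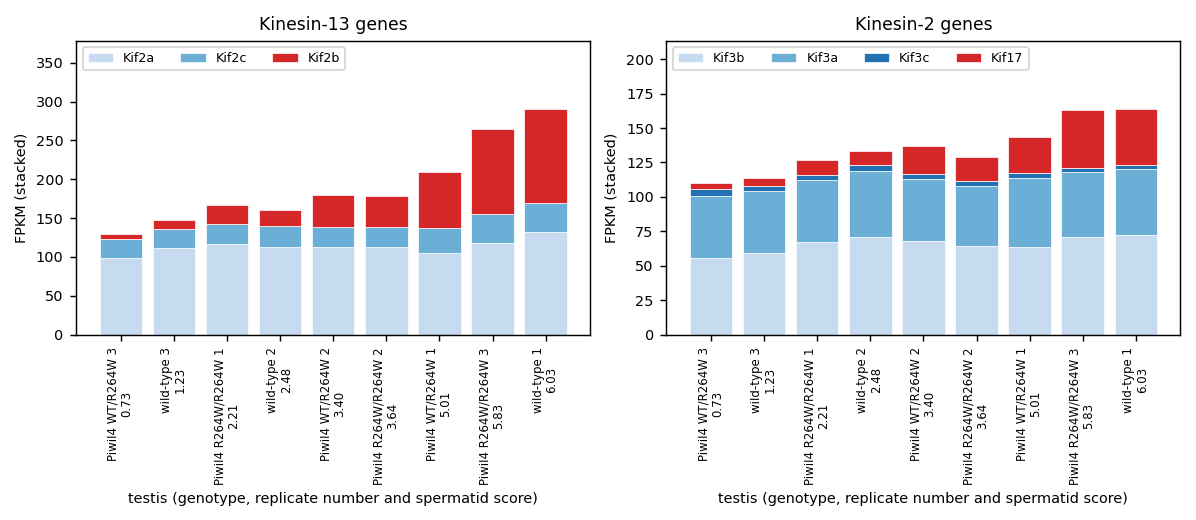
Stacked FPKM of kinesin-13 (left: Kif2a, Kif2c, Kif2b) and kinesin-2 (right: Kif3b, Kif3a, Kif3c, Kif17) genes in each testis, ordered by spermatid score, which is printed under genotype and replicate number. The red parts grow from 5.24% to 42.0% (Kif2b) and from 4.03% to 25.2% (Kif17) of the bars between the first and the last testis.

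Genes whose products work with these motors were read from a list of partners. All 4 partners of kinesin-2 or KIF17 rose, where 17.1% of all genes did. The list was chosen with earlier results of these data known. It holds genes that act in spermatids, and the score is made of spermatid genes, so this count is a description and not a test. Fhl5, which encodes ACT, went from 0.736 through 1.83, 5.19, 3.67, 10.2, 10.6, 31.0 and 46.2 to 56.9 CPM, a 77.3-fold range, with a slope of 1.04 (adjusted p = 3.91e-09, edgeR). Tbata, which encodes a spermatid protein that binds KIF17, went from 3.21 to 76.0 CPM (slope 0.77, adjusted p = 1.04e-08, edgeR). Kifap3, the accessory subunit that joins KIF3A and KIF3B, rose 2.02-fold (104 to 210 CPM, slope 0.18, adjusted p = 1.26e-05, edgeR), more steeply than Kif3b and Kif3a, although the differences between these slopes were not tested. Crem rose 1.74-fold (116 to 201 CPM, slope 0.13, adjusted p = 0.000337, edgeR).

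Of the 8 light chain and adaptor genes of kinesin-1, 0 were called by edgeR, with slopes from -0.05 (Trak2, a mitochondrial adaptor) to 0.14 (Klc3, a light chain, adjusted p = 0.161). The summed level of the 8 genes lay between 435 and 471 CPM. Of the 12 spindle and midzone partners, 2 rose, the kinase Plk1 (71.5 to 158 CPM, slope 0.14, adjusted p = 0.0220, edgeR) and the kinetochore motor Cenpe (152 to 205 CPM, slope 0.06, adjusted p = 0.0413, edgeR). The chromosomal passenger gene Cdca8 fell (slope -0.05, adjusted p = 0.0468, edgeR). Its level was highest at a score of 1.23 (125 CPM) and lowest at 5.01 (91.6 CPM). At the lowest and the highest score it was 104 and 101 CPM. The calls of Plk1, Cenpe and Cdca8 are given for all 9 testes only. Prc1 and Racgap1, which bundle the midzone with Kif4 and Kif23, had slopes of -0.02 and 0.00 and were not called. CENPE is a kinesin-7 by its protein family, but its symbol put it outside the 43 members.

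Between genotypes, 0 of the 40 kinesin genes were called in any of the 3 comparisons at an adjusted p under 0.05 (edgeR's quasi-likelihood test, 3 testes against 3), and over all genes 0% were called in each. DESeq2 also called 0 members in each. The comparisons share libraries in pairs and are not independent of each other. In homozygous against wild-type testes the log2 fold changes of the members ran from -0.42 to 0.30 with a median of -0.01. In homozygous against heterozygous testes they ran from -0.32 to 0.56 with a median of -0.01, and in heterozygous against wild-type testes from -0.42 to 0.23 with a median of -0.07. Over all genes the medians were 0.00, 0.00 and -0.02.

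At an unadjusted p under 0.05, edgeR picked out 1 member in homozygous against wild-type testes (1.21% of all genes), 0 in homozygous against heterozygous testes (2.17%) and 0 in heterozygous against wild-type testes (1.08%). DESeq2 picked out 1, 0 and 0. The levels of the 3 testes of one genotype lay all above or all below those of the other for 5 of the 40 members in the first comparison, 3 in the second and 3 in the third, against 5.58%, 7.06% and 5.31% of all genes.

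The member with the smallest p was Kif5a, the neuronal kinesin-1 heavy chain. Its levels were 8.81, 9.01 and 9.99 CPM in wild-type, 8.34, 9.10 and 8.52 CPM in Piwil4 WT/R264W and 6.22, 6.86 and 7.80 CPM in Piwil4 R264W/R264W testes. All 3 Piwil4 R264W/R264W testes lay below all 6 others. The log2 fold change was -0.42 against wild-type (standard error 0.15, adjusted p = 1, edgeR) and -0.32 against Piwil4 WT/R264W (standard error 0.14, adjusted p = 0.949, edgeR). With the score as a covariate and all 9 testes in the model, the change against wild-type was -0.42 (standard error 0.15, adjusted p = 1, edgeR).

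Kifc2, a minus end directed motor of neurons, was at 4.92, 6.07 and 5.69 CPM in wild-type, 3.90, 4.86 and 4.94 CPM in Piwil4 WT/R264W and 4.03, 4.69 and 3.81 CPM in Piwil4 R264W/R264W testes (log2 fold change against wild-type -0.41, standard error 0.17, adjusted p = 1, edgeR). Kif24, a centriolar kinesin-13 that holds back cilium growth, was at 68.8, 67.6 and 71.9 CPM in wild-type, 61.1, 63.1 and 61.8 CPM in Piwil4 WT/R264W and 59.3, 64.1 and 62.2 CPM in Piwil4 R264W/R264W testes. Every wild-type testis lay above all 6 knock-in testes, with a log2 fold change of -0.17 in both comparisons with wild-type (adjusted p = 1 in each, edgeR). Kif11 and Kif13b were the other 2 members whose levels did not overlap in the comparison of homozygous with wild-type testes, and Kif18a and Kif5c those in the comparison of heterozygous with wild-type testes.

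Kif2a and Kif6, a kinesin-9 motor of ependymal cilia, completed the smallest p-values in the comparisons with Piwil4 WT/R264W. Kif2a was at 281, 294 and 261 CPM in Piwil4 WT/R264W and at 305, 303 and 320 CPM in Piwil4 R264W/R264W testes, a log2 fold change of 0.15 (adjusted p = 0.949, edgeR), and at 368, 296 and 282 CPM in wild-type (Piwil4 WT/R264W against wild-type -0.18, adjusted p = 1, edgeR). Kif6 was at 21.7, 25.2 and 25.4 CPM in Piwil4 WT/R264W, at 27.0, 27.3 and 28.0 CPM in Piwil4 R264W/R264W and at 29.7, 24.6 and 29.1 CPM in wild-type testes. Its log2 fold change was 0.19 in homozygous against heterozygous testes (adjusted p = 0.949, edgeR) and -0.21 in heterozygous against wild-type testes (adjusted p = 1, edgeR). For both genes the Piwil4 R264W/R264W values lay above all Piwil4 WT/R264W values and within the range of the wild-type values.

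**Figure D5:**
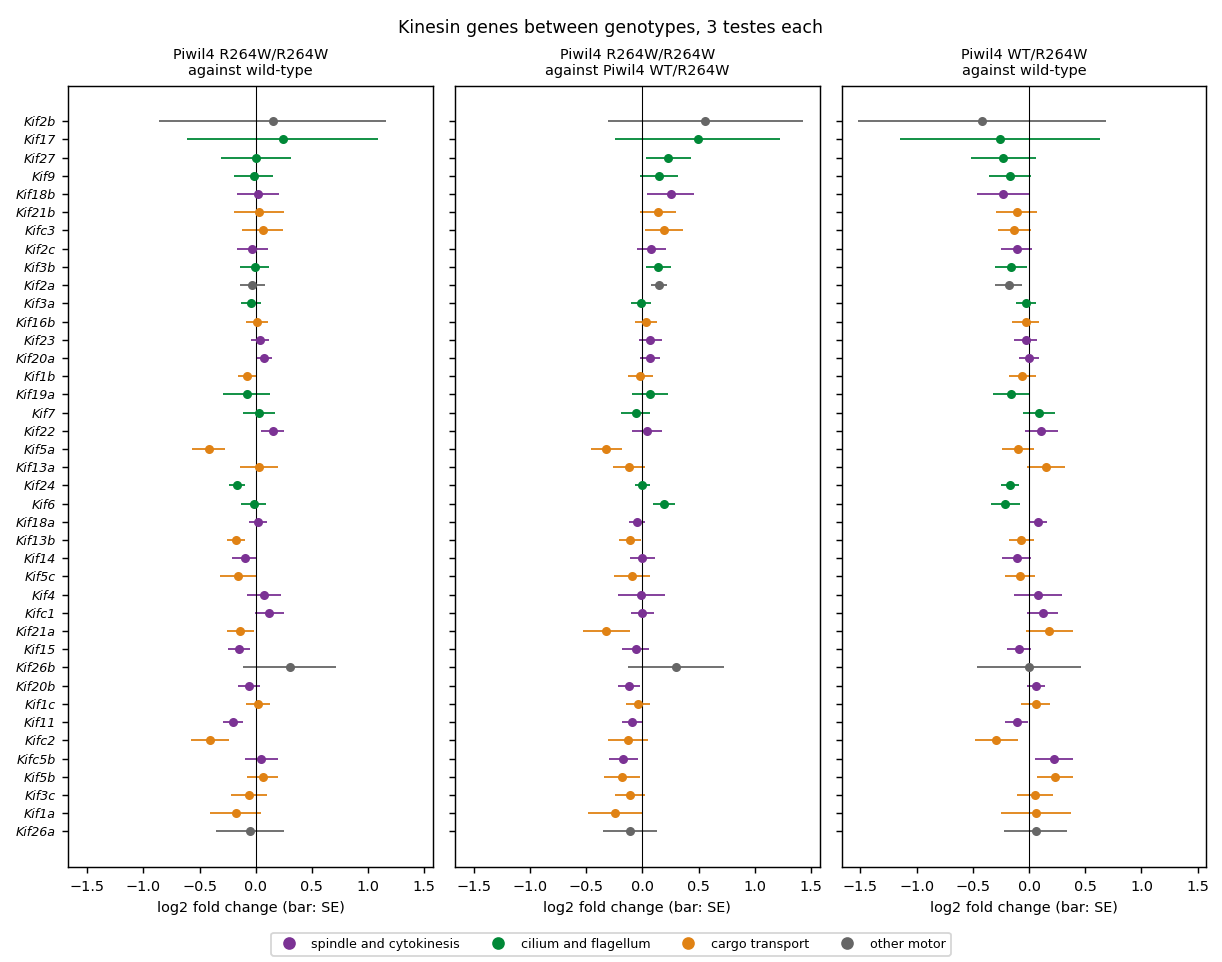
Log2 fold change (horizontal axes; bars are standard errors from edgeR, 3 testes against 3) of the 40 tested kinesin genes in the 3 comparisons between genotypes, coloured by role and ordered by slope on the spermatid score. None was called at an adjusted p under 0.05, and the bars of Kif2b and Kif17 at the top are the widest.

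The members that moved most with the score had the widest errors between genotypes. Kif2b was at 124 ± 154 CPM in wild-type, 93.0 ± 76.3 CPM in Piwil4 WT/R264W and 138 ± 113 CPM in Piwil4 R264W/R264W testes, and Kif17 at 68.9 ± 73.1, 57.8 ± 38.8 and 81.5 ± 60.3 CPM (SD, n = 3 each). The spread within each genotype was larger than any difference between the means. A difference of the size seen between the means could therefore not be resolved by comparing these means without the score. With the score as a covariate, the 3 comparisons again called 0 members after adjustment, and picked out 2 (Kif5a and Kif11), 0 and 1 (Kif2a) at an unadjusted p under 0.05, where 2.53%, 3.23% and 3.57% of all genes were picked out (edgeR).

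The estimated counts of some members were not whole numbers, and their values are less certain. Estimated counts were whole numbers in all 9 testes for most members, but in 0 of 9 testes for Kif20a, Kifc3, Kifc1 and Kifc5b, in 1 for Kif4 and in 2 for Kif2a; the counting tool is not given in the sources used here, so the reason is not known. Kifc1 and Kifc5b lay at 16.8 to 21.9 and 9.93 to 14.2 CPM, and neither was called on the score or between genotypes.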

How the data were processed

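Total RNA of 9 testes was sequenced from mRNA libraries. Per the submitters' notes the authors used fastp (version 0.18.0), StringTie (version 1.3.1), DESeq2 and build mm39; the aligner and counting tool are not given in the sources used here. The authors deposited, per gene and testis, an FPKM value and an estimated count not scaled for library size, of which 89.2% were whole numbers. Columns were matched to samples by label.

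The members and gene lists were chosen with earlier results of these data known. Named genes were those called on the score, up to 8 in each direction, and the 3 members with the smallest p in each pair of genotypes; further ones were named after their values were seen. Estimated counts were rounded and analysed in R (version 4.3.3) with edgeR (version 4.0.16; filterByExpr, TMM, quasi-likelihood test, two-sided, Benjamini-Hochberg), for each pair of genotypes and for the score with genotype as covariate. The score used a prior count of 1. Alternatives used DESeq2 (version 1.42.0) and, on FPKM plus 0.1 or plus 1 in log2 for genes averaging 0.5 FPKM or more, limma (version 3.58.1). The scripts were tested on simulated data. A simulated slope of 0.1 on the score was recovered in 19.8% of changed genes, and one of 0.3 in 79.9%. Members with small slopes that were not called are therefore not shown to be unchanged. Labels do not state that testes are separate animals beyond their replicate numbers, so p-values measure the spread between these samples. Promoters came from RefSeq on GRCm38.p6, not the build of the files, and were matched by symbol.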

Additional observations from a re-analysis of the deposited data

How the results depend on the processing

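The counts of 0 between genotypes were 0 in each of the 14 alternatives run for each pair, and the count of 0 for the difference of slopes between genotypes was 0 in both alternatives run. In the main fit 14 members were called on the score (10 higher, 4 lower). The total called was 9 with Sertoli scaling (0 lower) and 9 with limma on log2(FPKM + 0.1) (5 higher). With limma on log2(FPKM + 1) 5 were higher. Without the 2 testes farthest from the median score 3 were called (3 higher, 0 lower). These totals are over all members tested and can include members outside the 14. Falling members numbered 2 with DESeq2, 1 with DESeq2 size factors in edgeR and 1 with the rank of the score. Leaving out 1 testis at a time gave 5 to 17 members called, 5 to 11 higher and 0 to 7 lower. Kif11 reversed under Sertoli scaling, to a slope of 0.00 with adjusted p = 0.978 (edgeR). The cause of these changes was not tested. Fits with testes left out used fewer testes, and the number called fell in some of them and rose in others.

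Deviations of each testis from the mean of its genotype were correlated between testes. Of 9 pairs with the same replicate number, 2 had a correlation above 0.1 (range -0.81 to 0.86), against 10 of 18 pairs with different numbers. These correlations varied with the score. Wild-type replicate 1 had 0.86 with Piwil4 R264W/R264W replicate 3, of close score, and -0.87 with Piwil4 WT/R264W replicate 3, of the lowest score. The check therefore cannot tell whether testes with the same number share a litter or a batch. With the replicate number as a block, 9 members were called on the score, 8 higher and 1 lower, and 0 between genotypes. At 18.0 to 24.3 M counts per testis, Kif12, Kif28 and Kif19b had at most 13 counts and could not be compared.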
